A study of Mus musculus with 75 samples.

Results

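The platelet-derived growth factor (PDGF) genes were examined in the lungs of BLEO-IPF mice, in which bleomycin, a DNA-damaging drug, was given once into the trachea to cause lung fibrosis. The group held 6 genes chosen by name, the ligand genes Pdgfa, Pdgfb, Pdgfc and Pdgfd and the receptor genes Pdgfra and Pdgfrb, of 55536 genes in the count table. Poly(A) RNA of the inferior lobe was sequenced in 75 male C57BL/6JRj mice, 1 library per mouse. The mice fell into 10 controls (CTRL), 10 BLEO-IPF mice on day 7 (D7), 12 each on day 14 (D14), day 21 (D21), day 28 (D28) and day 35 (D35), and 7 on day 42 (D42) after bleomycin. They were 12 to 14 weeks old when bleomycin was given, and only animals whose body weight loss on day 6 lay between 5 and 17% entered the BLEO-IPF groups. The controls carry the label saline, whereas the protocol calls them untreated. The labels name no transgene, and whole lobe RNA mixes the RNA of all lung cells.

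PDGFs act as pairs of chains that bind 2 related receptor tyrosine kinases on the surface of fibroblasts, smooth muscle cells and pericytes and drive their division and migration. Chains A and B are cut to their active form inside the cell, while chains C and D are secreted with a CUB domain that a protease outside the cell has to remove. The A and C chains bind mainly PDGFRα, the D chain binds mainly PDGFRβ, and the B chain binds both. In the lung, Pdgfa is made by epithelium and instructs Pdgfra+ alveolar fibroblasts during the formation of alveoli, Pdgfb is made by endothelium and recruits Pdgfrb+ pericytes, and all have been studied in lung fibrosis.

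The PDGF genes did not move together. Pdgfc rose the most and fell back slowly, Pdgfd was lower on the first 2 days sampled, Pdgfrb was higher than CTRL on days 14, 21 and 28, Pdgfra passed against CTRL on day 14 alone, Pdgfb moved by small amounts in both directions, and Pdgfa passed the test on no day. All 6 genes passed the filter on low counts. A gene was called where its Benjamini-Hochberg adjusted p over all 16221 genes tested was under 0.05 in edgeR's quasi-likelihood test. On day 7, 3 of the 6 genes were called, 1 higher and 2 lower, where 45.8% of all genes tested were called. Day 14 had 4 calls, 3 higher and 1 lower, against a background of 62.4%. On day 21 there were 3, all higher (background 54.2%). The count was 2 on day 28 (background 43.3%), 1 on day 35 (29.9%) and 1 on day 42 (24.7%), all higher. The number of PDGF genes called was thus close to the share called over all genes, and what set them apart from one another was size and direction. The median log2 fold change (log2FC) of the 6 genes was 0.20 on day 14 and that of all genes 0.01. Total counts per library ran from 9240291 to 14665247 and the counts of the scarcest gene, Pdgfc, from 28 to 401 reads.

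**Figure D1:**
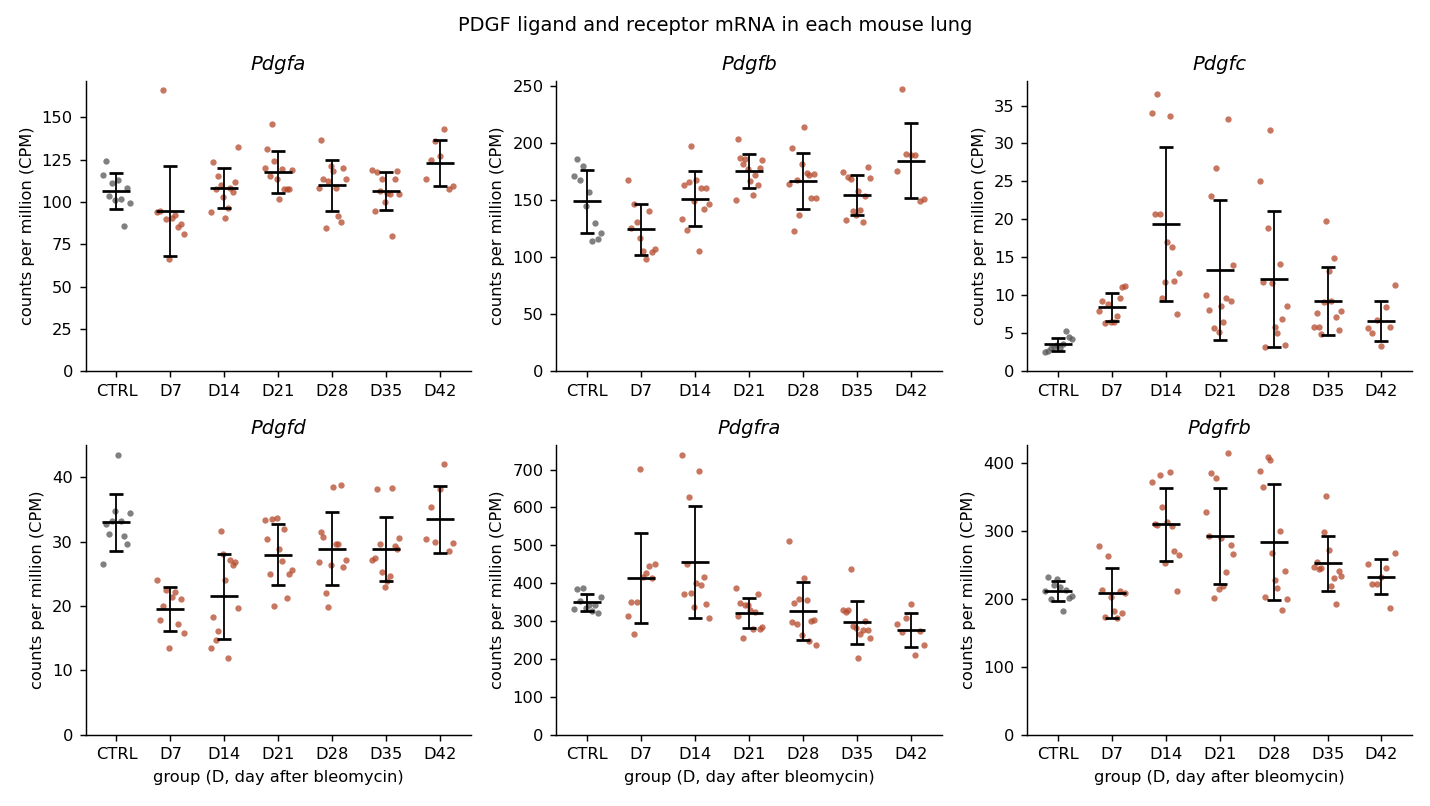
Normalized level of each PDGF gene in counts per 1000000 reads (CPM, y axis from 0) by group (x axis), 1 point per mouse, with black bars for the mean and SD. The D7 and D14 mice lay above all CTRL mice for Pdgfc, and the D7 mice lay below all CTRL mice for Pdgfd. The share of all genes tested that separated in this way is not given here.

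Pdgfc, which codes for the C chain, lies on chromosome 3 of GRCm38 (chr3:81036416-81214040, plus strand, ENSMUSG00000028019). In CPM (counts per 1000000 reads with TMM scaling) it ranged from 2.52 to 5.25 in CTRL with a median of 3.31. The D7 mice ranged from 6.33 to 11.3 (median 8.38), and the D14 mice from 7.55 to 36.5 (median 16.7). All 10 D7 mice and all 12 D14 mice thus lay above the highest CTRL mouse, while the D14 mice differed among themselves with an SD of 52% of their mean. How common such separation was among all genes tested is not given here. On day 21 the values ran from 5.10 to 33.2 (median 9.44), with 11 of 12 mice above the highest CTRL mouse. From day 28, when they ran from 3.18 to 31.7 (median 10.1), through day 35 with 4.88 to 19.8 (median 7.76) to day 42 with 3.26 to 11.4 (median 5.75), 9 of 12, 11 of 12 and 5 of 7 mice were above it. The groups of these later days overlapped CTRL through their lowest mice.

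The log2FC of Pdgfc against CTRL was 1.25 ± 0.34 (SE) on day 7 (adjusted p = 0.002) and 2.45 ± 0.33 on day 14 (adjusted p = 3.13e-09), a 5.46-fold level. Only 292 of the 16221 genes tested had a higher log2FC on day 14. It was 1.90 on day 21, 1.78 on day 28 and 1.38 on day 35 (adjusted p = 8.36e-04 on day 35). On day 42 the log2FC of 0.90 ± 0.38 did not pass (adjusted p = 0.07, 95% interval 0.16 to 1.64). That last call turned on the method, since DESeq2 gave an adjusted p of 0.0472 and the fit without D42 replicate 4 gave 0.0471. Between days, Pdgfc rose further from day 7 to day 14 (log2FC 1.20, adjusted p = 0.00428), where 17% of all genes were called, and it was lower on day 42 than on day 14 (-1.55 ± 0.36, adjusted p = 5.21e-04), where 34% were called. No step between neighbouring later days passed for Pdgfc, the first of them, from day 14 to day 21, being -0.55 (adjusted p = 0.311).

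The 250 bases upstream of the RefSeq start of Pdgfc are shown because this gene changed most, from GRCm38.p6, chr3:81036166-81036415, plus strand. A set of 5 short motifs were searched on both strands: the GC box GGGCGG, the TATA box TATAAA, the CCAAT box CCAAT, the AP-1 site TGANTCA and the EGR site GCGNGGGCG. None of these letter strings occurs in this window, which has 50.8% G and C and 3 CpG dinucleotides, so the sequence stands in lower case throughout.
Pdgfc: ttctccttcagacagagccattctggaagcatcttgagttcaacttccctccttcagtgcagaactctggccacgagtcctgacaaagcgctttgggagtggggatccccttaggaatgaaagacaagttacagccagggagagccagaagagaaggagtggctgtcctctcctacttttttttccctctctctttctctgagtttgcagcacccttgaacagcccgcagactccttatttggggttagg
Over the same window of all 32851 promoters, 32.7% held the GC box, 12.4% the TATA box, 33.8% the CCAAT box, 6.75% the AP-1 site and 4.7% the EGR site, and the median G and C share was 52.4%.

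Pdgfd codes for the D chain and lies on chromosome 9 (chr9:6168584-6378850, plus strand, ENSMUSG00000032006). Its CTRL values ran from 26.5 to 43.5 CPM with a median of 32.9. The D7 mice ran from 13.5 to 24 (median 20.6) and the D14 mice from 11.9 to 31.7 (median 21.8). All 10 D7 mice lay below the lowest CTRL mouse, as did 8 of 12 D14 mice, so the direction was opposite to that of Pdgfc in the same lungs. As for Pdgfc, the share of all genes separating in this way is not given. The medians of the 4 later groups in order of time were 27.9, 28.4, 28.2 and 30.4, with 5, 4 and 4 of 12 mice and 0 of 7 mice below the lowest CTRL mouse.

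Against CTRL, Pdgfd fell by 0.75 ± 0.13 (SE) on the log2 scale on day 7 (adjusted p = 1.72e-06), to 0.593 of its level, and by 0.61 ± 0.12 on day 14 (adjusted p = 1.22e-05). Of all genes tested, 593 had a lower log2FC on day 7. On day 21 the log2FC was -0.24 (adjusted p = 0.087) and on days 28 and 35 it was -0.19. By day 42 it was 0.02 (95% interval -0.25 to 0.29). The return was tested directly: Pdgfd was higher on day 42 than on day 14, by 0.64 ± 0.13 (adjusted p = 1.50e-04). The step from day 14 to day 21 was 0.38 (adjusted p = 0.0815) and passed without D14 replicate 5, 6 or 11 (0.0214, 0.0492 and 0.0428) or D21 replicate 5 or 10 (0.0437 and 0.0389).

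The upstream window of Pdgfd is shown beside that of Pdgfc because these closely related ligand genes moved in opposite directions (GRCm38.p6, chr9:6168236-6168485, plus strand). Capitals mark the TATA box string, whose first base lies 160 bases upstream of the RefSeq start, and the other 4 motifs have no match.
Pdgfd: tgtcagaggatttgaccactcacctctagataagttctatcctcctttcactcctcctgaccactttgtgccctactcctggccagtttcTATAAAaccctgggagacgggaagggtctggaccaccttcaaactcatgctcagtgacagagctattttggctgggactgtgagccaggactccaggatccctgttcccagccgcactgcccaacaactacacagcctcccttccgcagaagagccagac
The 2 windows were alike in composition, with 3 CpG dinucleotides each and 53.6% G and C in that of Pdgfd.

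Pdgfa, the gene of the A chain, is on chromosome 5 (chr5:138976014-138997370, minus strand, ENSMUSG00000025856). Its levels ran from 85.9 to 124 CPM in CTRL (median 106), from 66 to 166 on day 7 (median 89.9) and from 90.7 to 132 on day 14 (median 108). The later medians were 117, 113, 106 and 125, and every group overlapped CTRL. The log2FC ranged from -0.17 on day 7 (adjusted p = 0.112) to 0.21 on day 42 (adjusted p = 0.0997), and on day 14 it was 0.02 with a 95% interval of -0.14 to 0.19. The day 7 value rested on 1 mouse: D7 replicate 3 had 166 CPM, and the next highest D7 mouse had 94.4 CPM. Without it, Pdgfa was lower on day 7 (log2FC -0.30, adjusted p = 9.05e-04) and higher on day 14 than on day 7 (0.32, adjusted p = 0.00155). An antisense gene, 6330403L08Rik, shares 813 exonic bases with Pdgfa and had 12.6% as many counts. In a fit of the groups compared alone, Pdgfa passed on day 21 (adjusted p = 0.0363) and day 42 (0.0154). Whether strand was used in counting is not given in the sources used here, so reads of the pair may be mixed.

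Pdgfb codes for the B chain and is on chromosome 15 (chr15:79995874-80014977, minus strand, ENSMUSG00000000489). CTRL mice ranged from 114 to 186 CPM (median 151), D7 mice from 98.4 to 167 (median 121) and D14 mice from 106 to 198 (median 155). On day 21 the range was 150 to 204 (median 177), and on day 42 it was 149 to 247 (median 189), where 4 of 7 mice lay above the highest CTRL mouse. All groups overlapped CTRL, and the changes were small. Pdgfb was lower on day 7 (log2FC -0.26 ± 0.10, adjusted p = 0.0213), near CTRL on day 14 (0.02), and higher on day 21 (0.24 ± 0.09, adjusted p = 0.024) and on day 42 (0.31 ± 0.10, adjusted p = 0.022). Days 28 and 35 gave 0.17 and 0.06 and did not pass. It was also higher on day 14 than on day 7 (0.28, adjusted p = 0.0229) and on day 42 than on day 14 (0.29, adjusted p = 0.0212). These calls were close to the threshold. The day 7 call was lost without CTRL replicate 2 (adjusted p = 0.0578) or CTRL replicate 4 (0.053), that of day 21 without CTRL replicate 7, 9 or 10 (adjusted p of 0.0633, 0.0613 and 0.0563), and both day 42 calls without D42 replicate 2 (adjusted p = 0.11 against CTRL and 0.124 against day 14). The step from day 7 to day 14 was lost without D14 replicate 5 (0.0525) or D7 replicate 6, 7 or 9 (0.0502, 0.0598 and 0.0529).

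**Figure D2:**
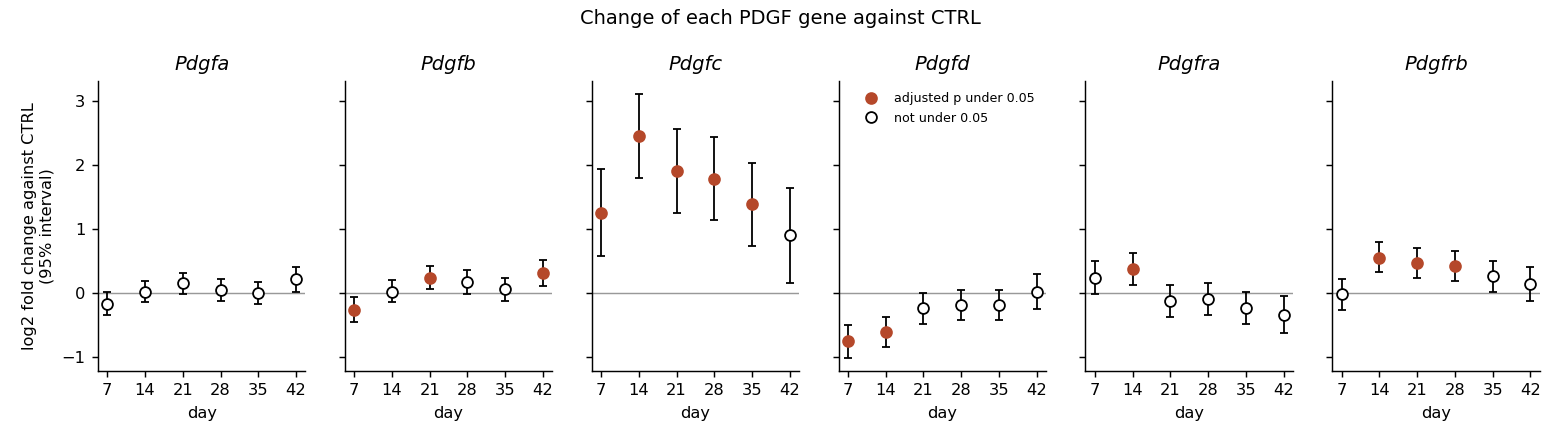
Log2 fold change of each PDGF gene against CTRL (y axis) by day after bleomycin (x axis), with 95% intervals of 1.96 SE, and filled points where the adjusted p was under 0.05. Pdgfc peaked at 2.45 on day 14 and declined to 0.90 on day 42, Pdgfd went from -0.75 to 0.02, and Pdgfra went from 0.38 on day 14 to -0.34 on day 42. The day 42 values of these genes were not called.

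Pdgfra codes for PDGFRα, the receptor of alveolar and adventitial fibroblasts, and is on chromosome 5 (chr5:75152292-75198215, plus strand, ENSMUSG00000029231). CTRL mice were tightly grouped, from 323 to 387 CPM (median 343). D7 mice ran from 267 to 702 (median 415) and D14 mice from 309 to 739 (median 398). On these days 6 of 10 and 7 of 12 mice lay above the highest CTRL mouse, and 2 and 1 below the lowest. The medians were then 327, 301, 284 and 273, with 5, 7 and 8 of 12 and 6 of 7 mice below the lowest CTRL mouse. Pdgfra was higher on day 14 by a log2FC of 0.38 ± 0.13 (adjusted p = 0.00711), and the 0.24 of day 7 did not pass (adjusted p = 0.122). The fall from day 14 was the clearest movement of this gene: it fell by 0.50 ± 0.12 by day 21 (adjusted p = 0.0218), the only PDGF call of that step, where 1.03% of all genes were called, and by 0.72 ± 0.14 by day 42 (adjusted p = 8.17e-05). Against CTRL the last value, -0.34 ± 0.15, did not pass (adjusted p = 0.0825, 95% interval -0.62 to -0.05), whereas a fit of the groups compared alone called it on day 35 (0.0379) and day 42 (0.00208). The day 21 step was lost without D14 replicate 1, 4 or 8 (adjusted p of 0.102, 0.0715 and 0.118) or D21 replicate 4 or 11 (0.0605 and 0.0519), and in a fit of the groups compared alone (0.213).

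The window upstream of the RefSeq start of Pdgfra is shown as that of the receptor whose fall from day 14 to day 21 was called (GRCm38.p6, chr5:75152001-75152250, plus strand). It holds none of the 5 motifs and has 54.4% G and C with 4 CpG dinucleotides.
Pdgfra: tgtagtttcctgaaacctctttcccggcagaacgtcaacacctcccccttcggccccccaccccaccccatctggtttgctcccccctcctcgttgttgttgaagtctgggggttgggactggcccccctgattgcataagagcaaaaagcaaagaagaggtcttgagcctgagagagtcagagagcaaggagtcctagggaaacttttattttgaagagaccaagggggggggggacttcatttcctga
The windows listed for Pdgfa lie within the span of that gene and are described by composition only: they have 66.4% and 72.4% G and C, 19 and 28 CpG dinucleotides, and 1 and 2 GC boxes.

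The gene Pdgfrb codes for PDGFRβ, the receptor of pericytes, smooth muscle cells and activated fibroblasts, and is on chromosome 18 (chr18:61045150-61085061, plus strand, ENSMUSG00000024620). It ranged from 183 to 232 CPM in CTRL (median 212) and from 173 to 278 on day 7 (median 206), so that the day 7 mice lay on both sides of CTRL. On day 14 it ranged from 211 to 388 (median 309), with 11 of 12 mice above the highest CTRL mouse. The medians afterwards were 285, 254, 245 and 232, with 9, 7 and 9 of 12 and 3 of 7 mice above it. The SD rose from 6.95% of the mean in CTRL to 30.3% on day 28, when single mice reached 408 CPM and others stayed in the CTRL range.

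Pdgfrb was higher on day 14 (log2FC 0.55 ± 0.12, adjusted p = 6.27e-05), day 21 (0.47 ± 0.12, adjusted p = 7.21e-04) and day 28 (0.42 ± 0.12, adjusted p = 0.00295). It had -0.02 on day 7 (95% interval -0.26 to 0.22) and 0.26 and 0.14 on days 35 and 42, which did not pass (adjusted p = 0.0961 and 0.493). The rise from day 7 to day 14 passed (0.57 ± 0.12, adjusted p = 5.98e-04), as did the lower level on day 42 than on day 14 (-0.41 ± 0.13, adjusted p = 0.0128). Pdgfrb thus started later than Pdgfc and Pdgfd, which had already moved on day 7, although a difference in timing between genes was not tested.

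In all, 3 of the 6 genes were called between day 7 and day 14, where 17% of all genes were called, and 5 between day 14 and day 42, where 34% were. None was called from day 21 to day 28, from day 28 to day 35 or from day 35 to day 42, where 0.727%, 1.27% and 0% of all genes were called. At an unadjusted p under 0.05 the counts for these 3 steps were 0, 0 and 2, and DESeq2 called none of the 6.

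Per kilobase of exon, the order of the genes in CTRL was Pdgfrb (38.6 ± 2.68 CPM per kb, SD, n = 10), Pdgfb (35.7 ± 6.55), Pdgfra (34.8 ± 2.28), Pdgfa (34.1 ± 3.38), Pdgfd (10.5 ± 1.4) and Pdgfc (0.697 ± 0.174). The first 4 overlapped within their SDs, while Pdgfd stood well under them and Pdgfc far under Pdgfd. On day 14 (n = 12) the receptors led, with Pdgfrb at 56.5 ± 9.92 and Pdgfra at 45.4 ± 14.7, followed by Pdgfb (36.3 ± 5.7), Pdgfa (34.7 ± 3.82), Pdgfd (6.82 ± 2.1) and Pdgfc (3.81 ± 1.98). Even at its peak, Pdgfc had the lowest mean level of the 4 ligands per length, and its SD overlapped that of Pdgfd, as the SDs of all neighbours in this order did except Pdgfa and Pdgfd. By day 42 (n = 7) Pdgfb (44.3 ± 7.88) and Pdgfrb (42.4 ± 4.75) overlapped at the top, with Pdgfra at 27.6 ± 4.49.

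Ratios of 2 genes within a mouse do not depend on how libraries are scaled to each other, and 3 were tested on 6 days each, 18 tests in all, by 2-sided permutation tests (100000 resamples, exact on day 42) with Benjamini-Hochberg adjustment. The log2 ratio of Pdgfrb to Pdgfra was -0.72 ± 0.10 (SD) in CTRL and -0.16 ± 0.26 on day 21, a difference of 0.56 ± 0.08 (SE) with 11 of 12 mice above the highest CTRL mouse (permutation adjusted p = 1.80e-04). It stayed 0.49 higher on day 28, 0.50 on day 35 and 0.48 on day 42, where 6 of 7 mice were above (exact permutation adjusted p = 4.63e-04). On day 14 the difference was 0.21 (permutation adjusted p = 0.0477), with 6 of 12 mice above the highest CTRL mouse and 2 below the lowest. On day 7 it was -0.24 (permutation adjusted p = 0.22). The mean receptor ratio was therefore shifted towards Pdgfrb on every day from day 14, least clearly on day 14, and including the days when neither receptor alone passed against CTRL.

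The ratio of Pdgfc to Pdgfd moved the most. Its log2 value was -3.18 ± 0.38 in CTRL, -1.20 ± 0.42 on day 7 and -0.25 ± 1.17 on day 14, where the highest mouse reached 1.48 and the lowest -1.80. All 10 D7 and all 12 D14 mice exceeded the highest CTRL mouse, with differences of 1.97 ± 0.18 and 2.92 ± 0.36 (permutation adjusted p = 2.16e-04 and 1.80e-04). The log2 ratio stayed below 0 on average, at -1.30, -1.55, -1.73 and -2.38 in the D21, D28, D35 and D42 mice, which was 1.87, 1.63, 1.44 and 0.79 ± 0.27 above the CTRL mean. On day 42, 5 of 7 mice were above the highest CTRL mouse (exact permutation adjusted p = 0.0128). Pdgfa to Pdgfb differed from CTRL on no day, with differences from -0.14 to 0.05 and adjusted p from 0.245 to 0.938 by permutation.

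**Figure D3:**
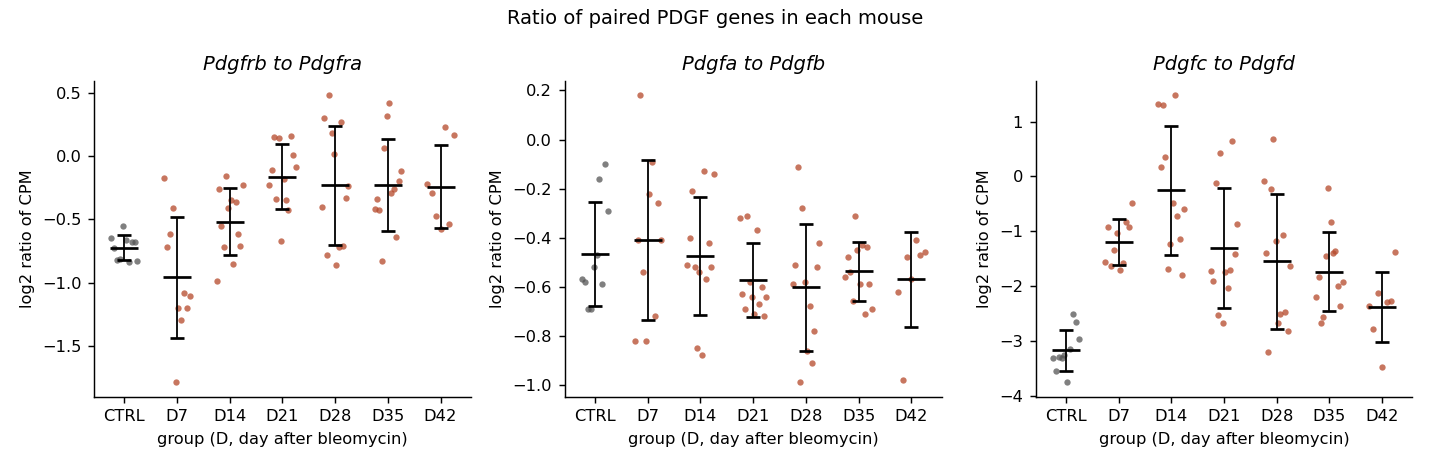
Log2 ratio of CPM of 2 PDGF genes in each mouse (y axis, a separate scale per panel) by group (x axis), with black bars for the mean and SD. The ratio of Pdgfc to Pdgfd rose from a mean of -3.18 in CTRL to -0.25 on day 14, the mean ratio of Pdgfrb to Pdgfra was under that of CTRL on day 7 (-0.96 against -0.72) and over it from day 14 to day 42, and the means of Pdgfa to Pdgfb lay between -0.60 and -0.41.

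Mice of the same group also differed in a coordinated way. The deviation of each mouse from its group mean in log2 CPM was compared for all 15 pairs of PDGF genes over 75 mice, with mice permuted within groups (100000 resamples, 1e-05 being the smallest p they can give). Pdgfc and Pdgfrb rose and fell together (Pearson r = 0.72, Spearman rho = 0.64, permutation adjusted p = 7.50e-05 for r and 5.00e-05 for rho), and r was 0.67 without the 2 mice farthest from the median of Pdgfc. Within single groups r ran from -0.31 to 0.90 and was above 0 in 6 of 7. Mice with more Pdgfc had less Pdgfd (r = -0.57, rho = -0.55, permutation adjusted p = 7.50e-05 and 5.00e-05), and r was -0.52 without the 2 farthest mice. Within groups r was -0.89 on day 14, -0.84 on day 21 and -0.57 on day 28, and closer to 0 on day 35 (-0.31) and day 42 (-0.24), in CTRL (-0.02) and on day 7 (-0.08). Pdgfd and Pdgfrb were opposed as well (r = -0.44, rho = -0.39, permutation adjusted p = 0.0011 and 0.00367, r = -0.40 without 2 mice, -0.70 to 0.25 within groups).

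Pdgfa and Pdgfb went together (r = 0.42, rho = 0.49, permutation adjusted p = 0.00131 and 5.00e-05), above 0 in all 7 groups and unchanged at 0.42 without 2 mice. Pdgfc was weakly opposed to Pdgfa (r = -0.28, rho = -0.33, permutation adjusted p = 0.0184 and 0.0168) and to Pdgfb (r = -0.29, rho = -0.30, permutation adjusted p = 0.0184 and 0.0168), with r of -0.33 and -0.35 without 2 mice. Another 4 pairs passed for r and not for rho: Pdgfa with Pdgfra, Pdgfb with Pdgfd, Pdgfd with Pdgfra and the receptors with each other, the last with r = 0.27 (permutation adjusted p = 0.0393) and rho = 0.20 (0.18). The other 5 pairs passed for neither.

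Markers of several cell types moved with these genes. In whole lung RNA, fewer cells of a type and less RNA per cell cannot be told apart. Summed over the 6 genes of the myofibroblast list, the median level was 629 CPM in CTRL (548 to 699) and 1129 on day 14 (832 to 1722), where 5 of 6 genes were higher, among them Tnc (log2FC 4.10) and Cthrc1 (2.50). The fibroblast list was split on day 14, 4 of 9 genes being higher and 4 lower, with the collagen genes Col1a1 (2.90), Col1a2 (2.30) and Col3a1 (2.49) up and the alveolar fibroblast genes Tcf21 (-0.98), Npnt (-0.49) and Inmt (-2.16) down. Of the pericyte list, 2 of 8 genes were higher and 2 lower, and of the endothelial list 1 was higher and 6 of 8 lower. Over all genes tested, 32.4% were called and higher on day 14 and 29.9% called and lower, and the pericyte counts were close to these shares. The summed endothelial level had a median of 4568 CPM in CTRL (4071 to 5492), 3543 on day 7 (3304 to 4022) and 3750 on day 14 (2656 to 4518). All D7 mice thus lay below all CTRL mice, and how common such separation was among all genes tested is not given here. Pdgfb and Pdgfd were lower on day 7. The endothelial median was also below that of CTRL on days 21 (3844), 28 (3780), 35 (3338) and 42 (3887). Pdgfb was not lower on those days or on day 14, with log2FC of 0.02, 0.24 and 0.06 on days 14, 21 and 35. Monocyte-derived macrophage markers went from a median of 228 CPM (196 to 300) to 3524 (1320 to 8523) on day 14, with 7 of 8 genes higher. AT2 cell markers were at 22251 CPM (20101 to 24775) in CTRL and 11463 (5574 to 21426) on day 14, with 5 of 6 lower. Platelet and megakaryocyte markers, of interest because platelets carry PDGF, summed to 57.7 CPM in CTRL (41 to 80.5) and 37.8 on day 14 (32 to 51.6). The part of these markers in the PDGF results was not tested beyond the relations between mice that follow.

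The deviations of the 6 genes from their group means were set against those of the log2 summed CPM of 14 marker lists, 84 relations chosen after the values had been seen, of which 39 passed at an adjusted p under 0.05 for r and also for rho. Pdgfc followed the myofibroblast list (r = 0.87, rho = 0.83, permutation adjusted p = 5.60e-05 and 6.00e-05), with r between 0.48 and 0.96 in all 7 groups and 0.86 without the 2 mice farthest out. It also followed the monocyte-derived macrophage list (r = 0.78, rho = 0.80, same adjusted p by permutation), and was opposed to the AT2 list (r = -0.78, rho = -0.69, same adjusted p by permutation, 0 of 7 groups above 0), with r of 0.79 and -0.75 without 2 mice. For the macrophage list r ran from -0.16 to 0.94 within groups and was above 0 in 6 of 7. Mice with more Pdgfc thus had higher sums of the myofibroblast and monocyte-derived macrophage lists and a lower sum of the AT2 list. A few abundant genes weighed most in these sums on day 14. These were Postn and Tnc for the myofibroblast list, Spp1 for the macrophage list and Sftpc for the AT2 list. Relations with the single genes of these lists were not tested.

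Pdgfrb followed the myofibroblast list (r = 0.82, rho = 0.75, without 2 mice 0.81) and the fibroblast list (r = 0.82, rho = 0.77, without 2 mice 0.80), with permutation adjusted p of 5.60e-05 for r and 6.00e-05 for rho. It was also the PDGF gene with the highest r to the pericyte list (r = 0.72, rho = 0.69, without 2 mice 0.75, 7 of 7 groups above 0, same adjusted p by permutation). Collagen genes weighed most in the fibroblast sum on day 14, with means of 3633 CPM for Col3a1, 3260 for Col1a2 and 2472 for Col1a1. Npnt had 769 CPM on that day, and in CTRL Inmt was the highest with 1953 CPM. Relations with the collagen genes and the alveolar fibroblast genes apart were not tested. For Pdgfra the highest r was to the smooth muscle list (r = 0.55, rho = 0.52, permutation adjusted p = 5.60e-05 and 1.57e-04, without 2 mice 0.58), and that to the myofibroblast list did not pass (r = 0.24, rho = 0.15, permutation adjusted p = 0.0872 and 0.346). Both receptors passed for the fibroblast list (Pdgfra r = 0.30, rho = 0.29, permutation adjusted p = 0.0365 and 0.0347, without 2 mice 0.28), for the smooth muscle list (Pdgfrb r = 0.49, rho = 0.40, permutation adjusted p = 3.02e-04 and 0.0032, without 2 mice 0.48) and, with negative sign, for the AT2 list (Pdgfra r = -0.51, rho = -0.46, permutation adjusted p = 1.15e-04 and 4.00e-04, without 2 mice -0.46; Pdgfrb r = -0.74, rho = -0.70, permutation adjusted p = 5.60e-05 and 6.00e-05, without 2 mice -0.72). These relations were not alike in all groups. For the fibroblast list Pdgfra had r from -0.69 to 0.71 within groups, above 0 in 5 of 7. For the smooth muscle list r ran from -0.10 to 0.78 for Pdgfra (above 0 in 6) and from -0.31 to 0.83 for Pdgfrb (above 0 in 3). For the AT2 list r ran from -0.72 to -0.07 and from -0.95 to 0.07. A difference between the receptors in these relations was not tested.

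Pdgfd went with the AT2 list (r = 0.59, rho = 0.49, permutation adjusted p = 8.84e-05 and 3.54e-04, without 2 mice 0.54) and against the fibroblast list (r = -0.57, rho = -0.54, permutation adjusted p = 5.60e-05 and 6.00e-05, without 2 mice -0.52). Within groups its r ran from -0.35 to 0.86 for the AT2 list and from -0.81 to 0.41 for the fibroblast list. Pdgfb, an endothelial gene, went with the endothelial list (r = 0.40, rho = 0.49, permutation adjusted p = 0.0014 and 6.00e-05, without 2 mice 0.48), above 0 in all 7 groups. Pdgfa went with the AT1 list (r = 0.37, rho = 0.40, permutation adjusted p = 0.00596 and 0.00192, without 2 mice 0.38), with r from 0.30 to 0.50 in the 7 groups. Neither relation was particular to its gene, since Pdgfd had a higher r to each list. For the endothelial list Pdgfd had r = 0.46 (rho = 0.47, permutation adjusted p = 5.29e-04 and 2.47e-04, without 2 mice 0.42). For the AT1 list it had r = 0.46 (rho = 0.40, permutation adjusted p = 4.52e-04 and 0.00266, without 2 mice 0.39).

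**Figure D4:**
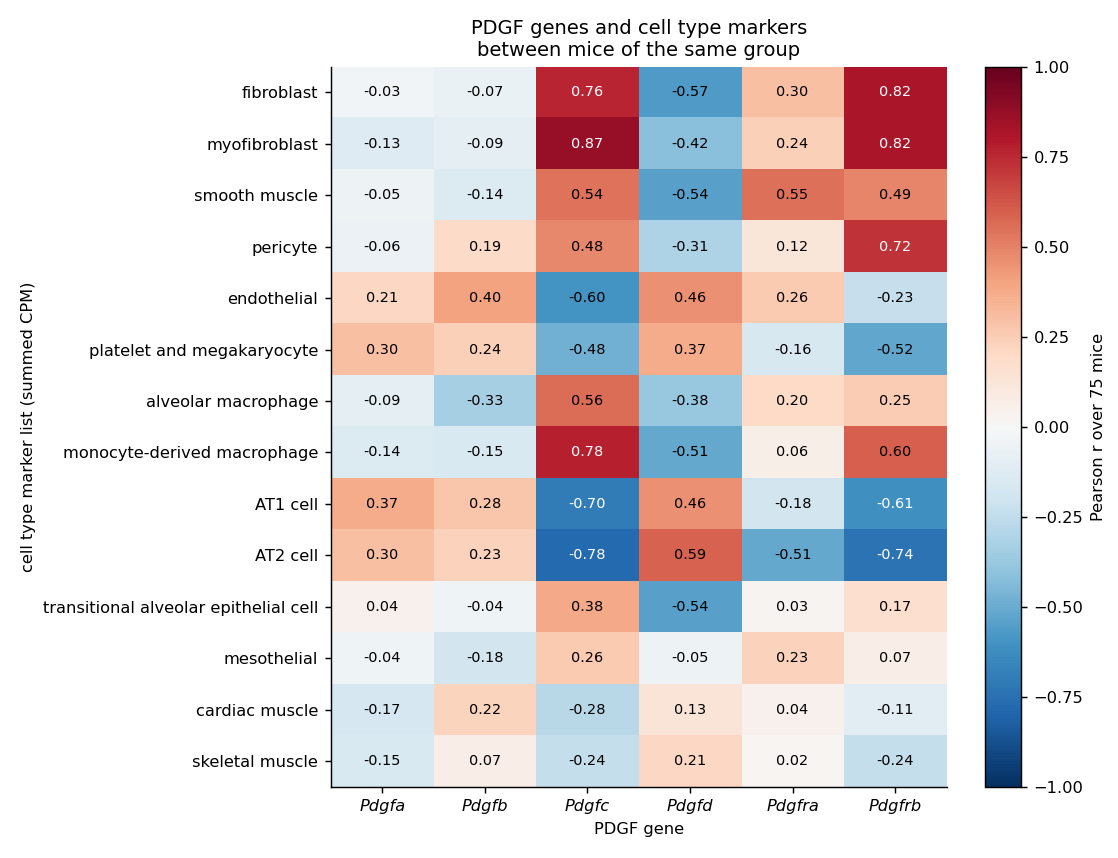
Pearson r between each PDGF gene (columns) and the summed level of each of 14 marker lists (rows), both as deviations of 75 mice from their group means on the log2 scale. Pdgfc and Pdgfrb share high values for fibroblast (0.76 and 0.82) and myofibroblast lists (0.87 and 0.82) and negative ones for the AT2 list, Pdgfd shows the opposite signs, and Pdgfa and Pdgfb have values between -0.33 and 0.40.

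Of 7 genes of proteases that can activate the ligands, 6 were higher on day 14. The pathway lists held 85 genes, all of them tested, and on day 14 32.4% of all genes were called and higher and 29.9% called and lower. Of the proprotein convertases, which cut the A and B chains, 3 of 4 were higher: Pcsk5 (log2FC 0.90, from a mean of 40.9 to 76.6 CPM), Furin (0.84, from 131 to 233) and Pcsk6 (0.66, from 16.5 to 26.2). Pcsk7 had 0.06 and did not pass. All 3 genes of the list of serine proteases outside the cell were higher. Plau, the gene of urokinase, which can release the active D chain, had 1.69 (adjusted p = 1.10e-11), Plat, the gene of tissue plasminogen activator, which can release the active C chain, had 0.86 and St14, the matriptase gene, had 0.53. Plau was higher on day 7 too (1.21) and still on day 42 (0.72, adjusted p = 0.00934). Plat was also called in the D7 mice with 0.50 and in the D21 mice with 0.46 (adjusted p of 0.0131 and 0.0133), and its later values of 0.34, 0.01 and 0.09 did not pass (0.0818 in the D28 mice).

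Of 5 co-receptors and binders outside the cell, 4 were higher on day 14 and 1 lower. A2m, alpha-2-macroglobulin, which binds PDGF, had a log2FC of 4.73 from a mean of 0.273 to 7.48 CPM. Pdgfrl, a PDGF receptor-like gene, rose by 1.68 from 5.25 to 16.8 CPM and was still higher on day 42 (0.86, adjusted p = 0.0366). Sparc, a matrix protein that binds the B chain, rose by 1.39 from 1765 to 4618 CPM, and Nrp1, a co-receptor, was lower by a log2FC of -0.23. On day 42, when 13.7% of all genes were called and higher and 11% called and lower, 2 of these 5 were higher and 0 lower.

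The other receptors of the same structural class and their ligands were split, 4 of 7 being higher and 3 lower on day 14. Csf1r, the macrophage growth factor receptor, had 0.69, Flt3 0.67 and Csf1 0.37. Flt3l had -1.29, Kitl -0.57 and Kit -0.48. Of the 34 adaptors and transducers 12 were higher and 10 lower with a median log2FC of 0.00, which was close to that of all genes (0.01). Grb10 (0.91), Stat3 (0.51) and Shc1 (0.48) were the highest, and Stat5b (-0.47), Pik3ca and Gab1 (both -0.35) the lowest. The signaling machinery therefore showed no common direction.

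Among 14 negative regulators, 7 were higher and 3 lower on day 14. Spry4 (0.92), the phosphatase gene Ptpn1 (0.75) and Dusp6 (0.63), a brake on ERK, were the highest, and Spry2 (-0.39), Spry1 (-0.36) and Spred2 (-0.25) the lowest. Of 18 early response and growth genes that growth factors induce, 12 were higher and 1 lower, with a median log2FC of 0.71. Has2, which makes hyaluronan, had 4.56 from a mean of 0.384 to 9.37 CPM, Fosl1 3.89 from 0.196 to 3.19 CPM and Myc 1.99 from 7.09 to 28.2 CPM, while Jun was lower (-0.72). On day 42 the counts were 2 higher and 1 lower of 18. Many signals other than PDGF induce these genes, and the part of PDGF in them was not tested.

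For each PDGF gene the genes most alike in their 6 values of log2FC were sought among 13058 genes, by the root mean square of the 6 differences. The nearest to Pdgfc were Aoah (0.13), Gas2l3 (0.17) and Fbn1 (0.19), the last of which codes for the microfibril protein fibrillin. On day 14 these had log2FC of 2.49, 2.43 and 2.59. Masp1 (0.04), Dnmt3a (0.05) and Lama5 (0.06) were nearest to Pdgfrb, and Klhl2 (0.05), Egfr (0.06), the epidermal growth factor receptor gene, and B3galnt1 (0.08) to Pdgfra. Egfr had 0.49 on day 14 and -0.30 on day 42, where Pdgfra had 0.38 and -0.34. Pdgfd was nearest to Kif26a (0.06), Dmtn (0.06) and St8sia4 (0.08), Pdgfb to Nmnat2 (0.06), Bace2 (0.07) and Gng11 (0.07), and Pdgfa to Uqcc3 (0.03), Prrg2 (0.04) and Lst1 (0.04). All these comparisons share the CTRL mice, so likeness here is a description.

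The 2 mice least like their own groups were D28 replicate 10, with a median Spearman correlation of 0.960 with the other D28 mice, and D14 replicate 8, with 0.963. D28 replicate 10 held skeletal and heart muscle mRNA, with 584 CPM of Acta1 and 717 CPM of Nppa, where no other of the 74 mice exceeded 1.22 and 4.45. Its Pdgfc level was 6.82 CPM, its Pdgfrb level of 183 CPM the lowest and its Pdgfd level of 38.7 CPM the highest of day 28. Without it, the log2FC on day 28 was 1.83 for Pdgfc (adjusted p = 9.37e-06) and 0.47 for Pdgfrb (adjusted p = 9.52e-04), and the calls of day 28 were the same 2.

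D14 replicate 8 had 33.7 CPM of Pdgfc and 697 CPM of Pdgfra, both among the high values of day 14, the lowest Pdgfd level (11.9 CPM) and the highest Pdgfrb level (388 CPM) of that day. Without it, the day 14 log2FC was 2.35 for Pdgfc (adjusted p = 1.23e-08), -0.56 for Pdgfd (4.29e-05), 0.52 for Pdgfrb (1.98e-04) and 0.31 for Pdgfra (0.0268), and all 4 calls of day 14 stood. The call of Pdgfra from day 14 to day 21 was lost without it.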

How the data were processed

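The authors isolated poly(A) RNA, prepared libraries with a directional kit, sequenced them single-end with 75 bases and aligned the reads with STAR 2.7.0f to GRCm38 with the annotation of Ensembl 96. They deposited raw counts per gene for 75 mice, 1 library each, and how reads were assigned to genes and strands is not given in the sources used here. All 55536 identifiers were found in GENCODE M21. No 2 libraries of a group agreed within sampling noise by a chi-square test.

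Counts were analysed in R 4.3.3 with edgeR 4.0.16 (filterByExpr, TMM factors, quasi-likelihood test, 1 fit of 7 groups, 12 comparisons, Benjamini-Hochberg over 16221 genes). DESeq2 1.42.0 was an alternative. The SE is the absolute log2FC over the root of F, and intervals are 1.96 SE. Log2 CPM used a prior count of 2. Refits without 1 mouse kept the dispersion trend. P-values of the fit rest on the spread between mice pooled over the 7 groups. That spread differed between groups: the SD of Pdgfc was 22% of its mean on day 7 and 73.7% on day 28. The fit was tested on simulated data with the same spread in all groups, which cannot address that difference. Permutations and figures used Python 3.11.15, scipy 1.17.1 and matplotlib 3.10.9. Levels per kilobase used the union of exons, and promoter sequences come from RefSeq on GRCm38.p6, which listed 4 of the 6 genes. Named were the 6 genes, up to 3 called genes with the highest and 3 with the lowest log2FC on day 14 in each pathway list, the 3 genes most like each PDGF gene (symbol not a clone name, mean log2 CPM above 1), and markers quoted beside a result. The genes, lists and tests were chosen with earlier results of these data known.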

Additional observations from a re-analysis of the deposited data

Results flagged for a closer look

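Each PDGF gene was checked for a mouse far from the rest of its group in the 3 groups of at most 10 mice, 18 checks in all, of which chance flags about 1 in 20. In 4 of them 1 mouse stood apart: D7 replicate 3 with 166 CPM of Pdgfa, D42 replicate 2 with 247 CPM of Pdgfb, CTRL replicate 6 with 43.5 CPM of Pdgfd, and D7 replicate 5 with 702 CPM of Pdgfra. Pdgfa was lower on day 7 once D7 replicate 3 was left out (log2FC -0.30, adjusted p = 9.05e-04), and Pdgfb was no longer called on day 42 without D42 replicate 2 (0.23, adjusted p = 0.11).

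The change against CTRL differed between days where a comparison of 2 days was called by edgeR's quasi-likelihood test. From day 7 to day 14 this held for Pdgfb (log2FC 0.28), Pdgfc (1.20) and Pdgfrb (0.57). From day 14 to day 21 it held for Pdgfra (-0.50), and that call was lost without any 1 of 5 mice. Between day 14 and day 42 it held for Pdgfb (0.29), Pdgfc (-1.55), Pdgfd (0.64), Pdgfra (-0.72) and Pdgfrb (-0.41), of which the call for Pdgfb was lost without D42 replicate 2 (0.20, adjusted p = 0.124).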

How the results depend on the processing

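Each log2FC of the 6 genes in the 12 comparisons was recomputed under 7 alternatives, 504 values, of which 479 kept their direction and side of the threshold, 7 lost and 9 gained a call and 9 changed sign. The sign changed only for values that were not called: Pdgfa on day 14 (-0.00 with upper quartile factors) and day 35 (-0.00 with at least 10 counts in every mouse, -0.01 with the replicate block), Pdgfb on day 14 (-0.00 with upper quartile factors), and Pdgfd from day 28 to day 35 (0.01 with library size, with upper quartile factors and in the fit of the groups compared, 0.00 with at least 10 counts and with DESeq2). The fit of only the groups compared called 5 of the 6 genes on day 21 (adding Pdgfa and Pdgfd), 3 on day 35 (adding Pdgfra and Pdgfrb), 4 on day 42 (adding Pdgfa, Pdgfc and Pdgfra) and 0 from day 14 to day 21, where it called 59.9%, 37.1%, 39.8% and 0% of all genes. DESeq2 called 2 on day 42. A minimum absolute log2FC of 0.5 left 1 on day 21, 1 on day 28, 0 on day 42 and 3 between day 14 and day 42. Leaving out each mouse in turn gave 0 to 2 calls on day 42 and 0 to 2 from day 14 to day 21. With difference of medians in place of means, the ratio of Pdgfrb to Pdgfra on day 7 passed (-0.39, permutation adjusted p = 0.0178) and that of Pdgfa to Pdgfb turned to 0.03 on day 14 and 0.06 on day 42, none of these last called. Spearman rho did not pass for Pdgfa and Pdgfra (-0.14), Pdgfb and Pdgfd (0.25), Pdgfd and Pdgfra (-0.24) and the 2 receptors (0.20). The relations with marker lists gave 39 passes with r and 41 with rho. The cause was not tested.

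Mice of different groups share a replicate number, and the library names run in the order of that number. The labels do not say what this order stands for. In CTRL, Pdgfb ran from 145 to 186 CPM in replicates 1 to 6 and from 114 to 129 in replicates 7 to 10. In D7, replicates 1 to 5 had 117 to 167 CPM and replicates 6, 7, 9 and 10 had 98.4 to 107. Replicate 8 of D7, with 140, broke this order. In D42, replicates 1 to 5 had 175 to 247 CPM and replicates 6 and 7 had 149 and 150. In D21, by contrast, replicate 1 had the lowest Pdgfb level (150 CPM). In D14, replicate 7 (167 CPM) lay above replicates 1 and 3 (133 and 124). The highest levels of D28 and D35 were those of replicates 7 (214 CPM) and 11 (179 CPM). For Pdgfc, CTRL replicates 1 to 7 had 2.52 to 3.58 CPM and replicates 8 to 10 had 4.27 to 5.25. The Pdgfb call of day 7 was lost without CTRL replicate 2 or 4, from the higher part of this order. That of day 21 was lost without CTRL replicate 7, 9 or 10, from its lower part. A trend of levels with this order was not tested. Over 204 same-numbered pairs the correlation of deviations from the group means ran from -0.54 to 0.57 (median 0.01), 63 were over 0.1, and 8 of 75 mice correlated best with their own number. With the replicate block, 2 genes were called on day 35 and 0 on day 42, with Pdgfrb gained on day 35 (adjusted p = 0.0325) and Pdgfb lost on day 42 (0.0501) and between day 14 and day 42 (0.0506). The calls on day 28 held without D28 replicate 10, and those on day 14 without D14 replicate 8. At 28 to 55 reads in CTRL, Pdgfc has the widest counting error of the 6 genes.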
